A study of Mus musculus with 30 samples.

Results

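The Ptbp, Mbnl and Celf genes encode 3 families of RNA-binding proteins that choose which exons of a transcript are kept. Their levels were read for 10 genes (Ptbp1, Ptbp2 and Ptbp3, Mbnl1, Mbnl2 and Mbnl3, and Celf1, Celf2, Celf4 and Celf6), taken as the entries of the count tables whose Ensembl identifier maps to one of those symbols. All 10 were found among the 48709 genes counted. RNA-seq libraries came from adult C57BL/6 mice, 3 of them wild type (WT) and 3 Ctcf haploinsufficient (Ctcf+/-), and from 5 tissues of each genotype (spleen, muscle, liver, kidney and brain), which gives 3 libraries per tissue and genotype and 30 in all. No treatment is named. CTCF occupies specific DNA sites and anchors chromatin loops; the extent of the Ctcf deletion is not given in the sources used here. The tissues were whole pieces holding many cell types, so fewer cells of a type and less RNA per cell cannot be told apart in any value below.

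PTBP proteins bind pyrimidine-rich stretches of pre-mRNA and mostly repress the exons beside them. PTBP1 is the widely expressed member, PTBP2 (also called nPTB) is the neuronal one, and PTBP3 is best known from blood-forming cells. In non-neuronal cells PTBP1 causes skipping of an exon of Ptbp2 and of the matching exon of its own transcript, which sends the skipped form to nonsense-mediated decay. MBNL (muscleblind-like) proteins are zinc-finger factors that drive many fetal-to-adult splicing switches in heart, skeletal muscle and brain, and they are trapped by expanded CUG repeats in myotonic dystrophy. CELF proteins (CUGBP Elav-like family) bind GU-rich RNA, often oppose MBNL at the same exons, and also act on mRNA decay and translation. CELF1 and CELF2 are broadly expressed, whereas CELF4 and CELF6 are known mainly from neurons.

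The exons through which these paralogues regulate each other are shown here because they mark how close the family members are in sequence and what gene-level counts leave out. The 34-base exon that PTBP1 represses has a counterpart of the same length in all 3 Ptbp genes (in Ptbp3, the exon of that length most like the one of Ptbp1), at chr10:79862014-79862047 (plus strand), chr3:119724612-119724645 (minus strand) and chr4:59485339-59485372 (minus strand) of GRCm38 in the GENCODE M21 transcripts. Capitals mark the 19 of 34 positions that are identical in all 3.
Ptbp1: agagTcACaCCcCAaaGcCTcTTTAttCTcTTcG
Ptbp2: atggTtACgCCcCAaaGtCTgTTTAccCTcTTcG
Ptbp3: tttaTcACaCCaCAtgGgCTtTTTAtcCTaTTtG
Position by position, Ptbp1 and Ptbp2 shared 26 bases, Ptbp1 and Ptbp3 shared 22, and Ptbp2 and Ptbp3 shared 21.

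MBNL proteins likewise repress a 54-base exon of their own transcripts that affects whether the protein enters the nucleus. It lies at chr3:60614683-60614736 in Mbnl1 and at chr14:120395712-120395765 in Mbnl2, both on the plus strand. No exon of that length was found inside the transcripts of Mbnl3. Capitals mark the 46 of 54 positions that both genes share.
Mbnl1: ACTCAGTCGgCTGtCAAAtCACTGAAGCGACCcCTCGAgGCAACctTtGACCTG
Mbnl2: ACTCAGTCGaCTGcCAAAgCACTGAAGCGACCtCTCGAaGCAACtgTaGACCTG
The exon was present in 4 of the 10 annotated coding transcripts of Mbnl1 that reach across it, and in 3 of 6 for Mbnl2. The deposited values are 1 count per gene and library, so use of these exons cannot be read from them and only total transcript levels are described.

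Library totals ranged from 49819907 to 131645999 counts. Levels are given as CPM, the counts scaled to a common library size, by TMM (trimmed mean of M-values) over all 30 libraries. Ctcf, the gene whose dose was changed, was lower in every Ctcf+/- library than in every WT library of its tissue, with Ctcf+/- means at 61.5% to 68.1% of WT. That difference passed the adjusted threshold in brain (log2 difference -0.69, SE 0.06, edgeR adjusted p = 0.0259) and in none of the other 4 tissues, where Ctcf had edgeR adjusted p values of 0.107 to 0.914. Marker genes matched the labelled tissues: summed neuronal markers reached 2961 to 3655 CPM in WT brain, and myofibre markers were 189075 to 199052 CPM in WT muscle. Some sums of markers of other tissues did not overlap between genotypes. In spleen, hepatocyte markers were 21.3 to 27.1 CPM in WT and 0.0279 to 0.115 in Ctcf+/-. Proximal tubule markers there were 0.0586 to 0.261 and 6.66 to 13.5. In muscle, proximal tubule markers were 12.4 to 93.7 CPM in WT and 0 to 7.89 in Ctcf+/-. Adipocyte markers there were 7.99 to 27.6 and 48.6 to 132. The part of such traces in the genotype comparisons was not tested. Spleen WT 1 and spleen Ctcf+/- 2 stood apart from the other 4 spleen libraries and held the most RNA of the pancreas gene Cpa1 (17.6 and 129 CPM), though spleen WT 2 also held 9.91 CPM. The summed pancreas markers were 11.9 to 73.7 CPM in WT spleen and 10.5 to 505 in Ctcf+/- spleen. Summed erythroid markers also varied, from 4126 to 25695 CPM in WT spleen and from 5190 to 21969 in Ctcf+/- spleen, and their part in the spleen values was not tested. Liver WT 3 carried the synaptic transcript Snap25 at 16.4 CPM, against 0.496 to 1.06 CPM in the other liver libraries, and the summed neuronal markers were 25.4 to 52.8 CPM in WT liver and 19.1 to 24.1 in Ctcf+/- liver. Some of the values that turn on 1 of these 3 libraries are also given without it.

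Ptbp1 (chr10:79854427-79864771 of GRCm38, plus strand, first to last exon base) was high in spleen, liver and kidney and low in brain and muscle. Its 3 WT libraries read 111, 159 and 157 CPM in spleen, 119.5, 114 and 121 in liver and 79.2, 78.5 and 80.6 in kidney. In brain they read 17.0, 19.3 and 17.7 CPM and in muscle 10.4, 16.2 and 10.5. No WT library of spleen, liver or kidney came as low as any of brain or muscle. The WT log2 difference was -2.90 (SE 0.19, adjusted p = 3e-09) for brain over spleen and 3.10 (SE 0.19, adjusted p = 2.3e-09) for liver over muscle, in edgeR's quasi-likelihood test adjusted over all genes. Between the neighbours in this order, spleen and liver did not differ by that test (log2 difference -0.26, SE 0.18, adjusted p = 0.2), whereas brain was above muscle by 0.46 (SE 0.18, adjusted p = 0.032). Of the exon bases of Ptbp1, 16.3% also belong to genes on the other strand, among them the brain gene Plppr3. Fragments there were left out because the counting ignored strand, so its level is uncertain by the loss of that stretch.

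Ptbp2 (chr3:119718742-119784466, minus strand) had the opposite order at the top, with brain above every other tissue. The WT brain libraries read 59.6, 54.9 and 63.2 CPM, the WT spleen libraries 21.7, 25.4 and 34.7, the muscle ones 23.6, 26.1 and 25.1, the kidney ones 19.1, 16.4 and 14.97 and the liver ones 10.5, 11.98 and 13.0. Every brain library lay above every other library. Brain exceeded liver by 2.40 (SE 0.17, adjusted p = 1.1e-08) and spleen by 1.202 (SE 0.17, adjusted p = 9.7e-06) on the log2 scale. Muscle and spleen did not differ by the test (log2 difference 0.04, SE 0.16, adjusted p = 0.87), and kidney was above liver by 0.53 (SE 0.17, adjusted p = 0.015). The range of Ptbp2 was narrower than that of its relatives: it was still read in liver, its lowest tissue, from 428 to 544 counts per WT library.

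Ptbp3 (chr4:59471868-59549364, minus strand) was the spleen member. It read 263, 318 and 295 CPM in the WT spleen libraries and 83.1, 87.7 and 102 in liver. The WT kidney libraries gave 88.5, 85.3 and 73.8 CPM, the brain ones 16.4, 14.8 and 15.5 and the muscle ones 14.3, 17.2 and 10.96. Spleen libraries were all above the rest, kidney and liver overlapped, and brain and muscle overlapped. Spleen exceeded muscle and brain most: the log2 difference of brain over spleen was -4.15 (SE 0.18, adjusted p = 3.9e-11) and that of liver over spleen -1.67 (SE 0.16, adjusted p = 2.9e-07). Kidney and liver did not differ by the test (log2 difference -0.12, SE 0.16, adjusted p = 0.54), and neither did brain and muscle (log2 difference 0.05, SE 0.16, adjusted p = 0.78).

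**Figure D1:**
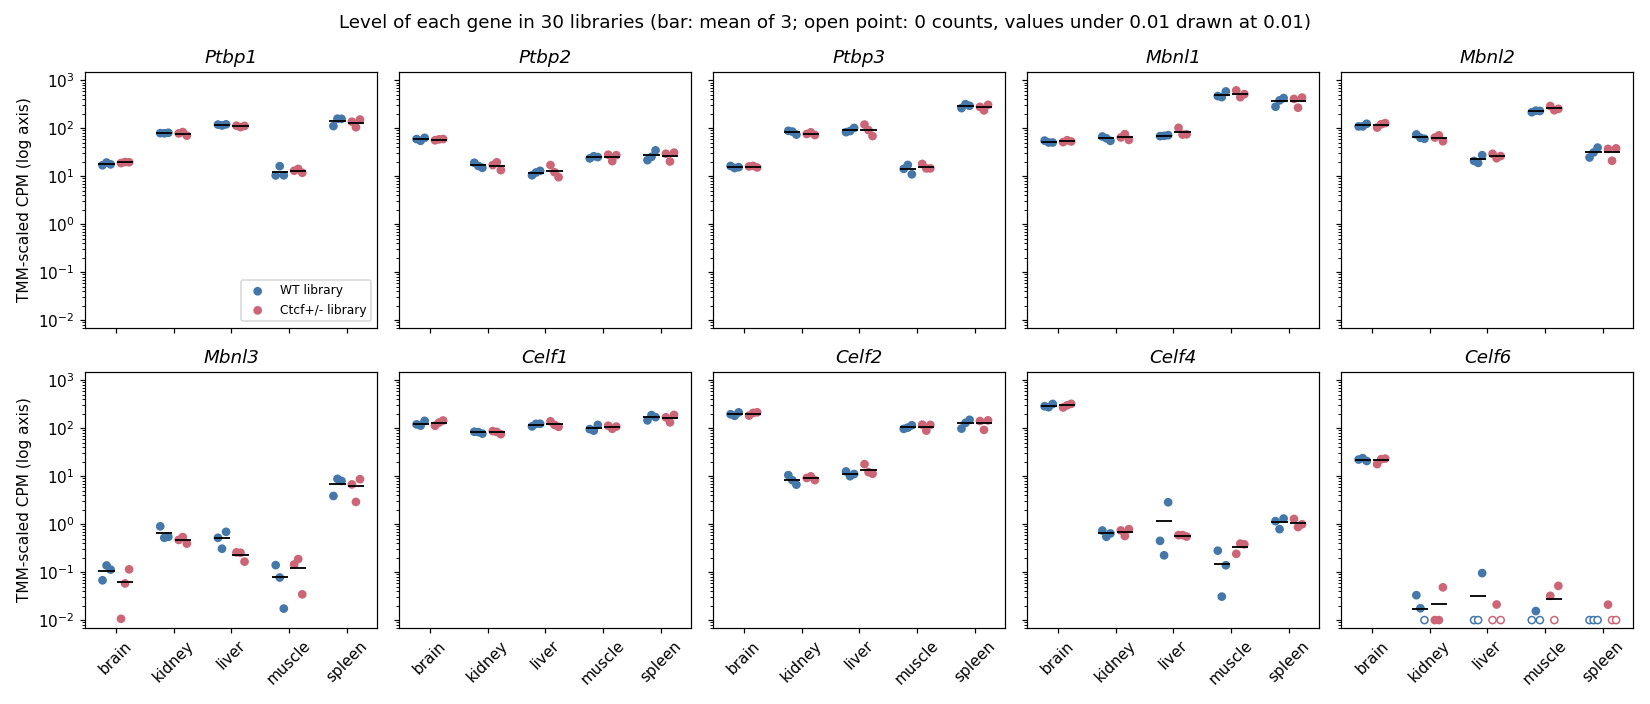
Level of each of the 10 genes in TMM-scaled CPM on a log axis, by tissue, with 1 point per library (blue WT, red Ctcf+/-) and a bar at the mean of 3. Tissue means differ more than genotype means for most genes, and WT and Ctcf+/- points are apart for Ptbp1, Mbnl1 and Mbnl3 in liver and Mbnl2 in muscle. Ptbp1 means in WT run from 12.4 CPM in muscle to 142 in spleen, and Celf4 means from 0.150 to 294.

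Mbnl1 (chr3:60472830-60629750, plus strand) was highest in muscle and spleen. Its WT libraries read 469, 447 and 586 CPM in muscle and 282, 382 and 427 in spleen. In liver they read 68.6, 69.6 and 71.8 CPM, in kidney 67.4, 61.8 and 54.7 and in brain 55.4, 50.6 and 50.5. Muscle and spleen stood clear of the other 3 tissues, which lay close together. Muscle exceeded spleen by 0.63 (SE 0.16, adjusted p = 0.0026) with TMM, and was below it by that test with total counts (-0.73, SE 0.20, edgeR adjusted p = 0.0037), and the log2 difference of liver over spleen was -2.36 (SE 0.17, adjusted p = 9.8e-09). Brain, kidney and liver did not differ from each other by the test, with log2 differences of -0.18 (SE 0.16, adjusted p = 0.33) for brain over kidney and -0.35 (SE 0.16, adjusted p = 0.061) for brain over liver.

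Mbnl2 (chr14:120275669-120431697, plus strand) was highest in muscle and next in brain. The WT libraries read 216, 233 and 229.8 CPM in muscle, 109, 109 and 124 in brain and 74.4, 63.4 and 60.4 in kidney. Spleen gave 24.6, 31.3 and 39.5 CPM and liver 20.9, 19.0 and 27.5, and these 2 tissues overlapped while the other 3 did not overlap with them or with each other. The log2 difference was 2.42 (SE 0.19, adjusted p = 2.9e-08) for brain over liver and 2.995 (SE 0.19, adjusted p = 2.8e-09) for muscle over spleen. The difference between brain and muscle depends on the scaling: it was -1.07 (SE 0.18, adjusted p = 9.6e-05) with TMM, -0.98 with DESeq2 size factors, which is under the fold minimum, and 0.20 (edgeR adjusted p = 0.447) with total counts. It was also under the fold minimum with no filter on low counts, with at least 10 counts in every library and without kidney WT 2 (-0.98). In all it lost its call in 6 of 23 alternatives, not all of which are named here.

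Mbnl3 (chrX:51117269-51206532, minus strand), which lies on the X chromosome and is known from developing muscle and placenta, was the scarce member. Only spleen held it above 1 CPM: the WT spleen libraries read 3.86, 8.79 and 7.96 CPM, from 385, 1050 and 1090 counts. WT kidney gave 0.9003, 0.520 and 0.544 CPM and WT liver 0.519, 0.308 and 0.691. Brain and muscle lay near the limit of counting, with 6, 14 and 8 counts in WT brain and 9, 5 and 1 in WT muscle. The log2 difference of kidney over spleen was -3.36 (SE 0.44, adjusted p = 6.7e-06), and kidney and liver did not differ by the test (log2 difference 0.37, SE 0.45, adjusted p = 0.52). The lowest of the WT spleen values came from WT 1, a library that stands apart.

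Celf1 (chr2:90940382-91019497, plus strand) varied least. Its WT libraries read 146, 188 and 169.9 CPM in spleen, 120.2, 113 and 142 in brain and 109, 123 and 124 in liver. Muscle gave 95.7, 88.9 and 117 CPM and kidney 84.4, 83.0 and 77.1. Brain, liver and muscle overlapped and did not differ by the test, with 0.15 (SE 0.14, adjusted p = 0.36) for brain over liver and 0.09 (SE 0.14, adjusted p = 0.62) for liver over muscle. The sole Celf1 comparison past both thresholds was kidney over spleen, at -1.01 (SE 0.14, adjusted p = 1.5e-05), just beyond the fold minimum; leaving out 1 library took it under that minimum for 13 of the 15 WT libraries, to -0.93 without spleen WT 2.

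Celf2 (chr2:6539694-7509563, minus strand) formed a high and a low group of tissues. The WT libraries read 195, 181 and 214 CPM in brain, 98.0, 129.5 and 149.5 in spleen and 96.9, 103 and 115 in muscle. Liver gave 12.6, 9.99 and 11.1 CPM and kidney 10.5, 8.24 and 6.66. The groups were far apart: the log2 difference was 4.59 (SE 0.21, adjusted p = 1.7e-10) for brain over kidney and -3.38 (SE 0.20, adjusted p = 1.4e-09) for liver over muscle. Muscle and spleen did not differ by the test (log2 difference -0.09, SE 0.18, adjusted p = 0.66), and neither did kidney and liver (log2 difference -0.39, SE 0.18, adjusted p = 0.09). The other-strand gene Gm26565 overlaps 7.58% of the exon bases of Celf2, where fragments were not counted.

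Celf4 (chr18:25477632-25753983, minus strand) was a brain gene. WT brain libraries read 287, 274 and 320.5 CPM, spleen 1.15, 0.787 and 1.31 and kidney 0.735, 0.546 and 0.640. WT liver gave 0.449, 0.224 and 2.86 CPM and WT muscle 0.280, 0.0308 and 0.139. The highest liver value belongs to WT 3, the liver library with synaptic RNA. Brain exceeded spleen by 8.16 (SE 0.69, adjusted p = 5.2e-08) and muscle by 10.85 (SE 0.82, adjusted p = 2.1e-08) on the log2 scale. Liver over muscle was 2.86 (SE 0.80, adjusted p = 0.0057) with all libraries and 1.02 (edgeR adjusted p = 0.140) without liver WT 3. Its part in the Celf4 values of liver was not tested beyond leaving that library out.

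Celf6 (chr9:59577917-59607292, plus strand) was read only in brain above stray counts. The WT brain libraries read 22.2, 23.8 and 20.7 CPM. WT kidney libraries held 4, 2 and 0 counts, liver 0, 0 and 4, muscle 0, 1 and 0 and spleen 0, 0 and 0. All 4 liver counts in WT came from WT 3. Against the 3 counts that a total of 0 over the 3 WT spleen libraries allows (0.00842 CPM), brain was at least 2639.7-fold higher. This limit covers counting error only.

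Over the 10 genes and the 10 pairs of tissues, 61 of 100 WT comparisons passed an adjusted p under 0.05 with an absolute log2 difference of at least 1, against 56.6% of the comparisons of all genes tested. The share among these genes was therefore near that of genes at large. In Ctcf+/- libraries 56 of 100 passed, against 56.9% of all, and all 56 were among the 61 WT comparisons with the same direction. The genes passing in WT, with the share of all genes in brackets, numbered 8 for brain against spleen (66.7%), 8 for brain against liver (59.8%), 8 for liver against muscle (50.6%), 7 for brain against kidney (56.1%) and 7 for kidney against muscle (49.6%). They numbered 6 for kidney against spleen (61.3%), 6 for liver against spleen (59.9%), 5 for brain against muscle (59.2%), 5 for muscle against spleen (63.7%) and 1 for kidney against liver (38.6%), where the 1 gene was Mbnl2. In Ctcf+/- they numbered 8 for brain against spleen (66.9%), 8 for brain against liver (60.9%), 5 for liver against muscle (51.1%), 7 for brain against kidney (57.3%) and 7 for kidney against muscle (49.8%), and 5 for kidney against spleen (61.8%), 5 for liver against spleen (58.9%), 5 for brain against muscle (58.8%), 5 for muscle against spleen (64.1%) and 1 for kidney against liver (39.5%). Ptbp3, Mbnl2 and Mbnl3 passed in 8 of their 10 WT pairs, Celf4 in 7, Ptbp1, Ptbp2, Mbnl1 and Celf2 in 6, Celf6 in 5 and Celf1 in 1. Total counts in place of TMM shift the log2 differences of all genes. From the TMM factors of all 30 libraries, averaged by tissue, the shift was 0.99 to 1.15 for brain or kidney over liver or muscle. It was -1.16 for liver over spleen and -1.202 for muscle over spleen. Each fit of 15 libraries has factors of its own: there Ptbp2 in WT muscle over spleen moved from 0.04 to -1.33. With total counts 14 of the 100 WT differences changed direction. Mbnl2 in brain over muscle was the 1 among them that had passed with TMM. Of the 22 WT differences with an adjusted p of at least 0.05 under TMM, 8 passed both thresholds with total counts, so statements that neighbouring tissues did not differ rest on TMM. They include Ptbp1 in liver over spleen (-1.43, SE 0.21, edgeR adjusted p = 2.2e-05), Ptbp2 in muscle over spleen (-1.33, SE 0.22, edgeR adjusted p = 5.4e-05), Ptbp3 in brain over muscle (1.33, SE 0.20, edgeR adjusted p = 2.7e-05), Celf1 in brain over liver (1.24, SE 0.17, edgeR adjusted p = 1.3e-05) and Celf2 in muscle over spleen (-1.45, SE 0.22, edgeR adjusted p = 3.1e-05).

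Levels of different genes can be set side by side only per length, so each family was also read as shares: the counts of a gene per kilobase of its exons, divided by the family's sum in the same library. Such a share does not depend on how libraries are scaled, though the shares of a family add up to 100% and are not independent. With 3 libraries against 3, the smallest 2-sided exact permutation p is 0.1, so WT comparisons are given by whether the libraries overlap.

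In the Ptbp family, brain was the tissue in which Ptbp2 made up the most. Ptbp2 took 53.0, 49.7 and 54.3% of the family in the WT brain libraries and 38.5, 33.2 and 42.7% in muscle, against 6.79, 6.02 and 5.73% in kidney, 3.87, 3.52 and 4.95% in spleen and 3.05, 3.52 and 3.49% in liver. Brain lay above muscle, and muscle above the other 3 tissues, with no overlap among the 30 libraries. Ptbp1 took 65.0% ± 2.19 (SD, n = 3) of the family in WT liver and 56.6% ± 2.67 in kidney, but 30.8% ± 2.64 in brain and 35.8% ± 3.72 in muscle, where the last 2 overlapped. Ptbp3 took 54.4% ± 3.07 in spleen, where it was the leading member, and 16.9% ± 0.857 in brain. The family as a whole, in CPM per kilobase, was 72.0 ± 9.61 (SD, n = 3) in WT spleen, 38.4 ± 1.84 in liver, 29.6 ± 1.06 in kidney, 12.3 ± 0.330 in brain and 7.22 ± 1.18 in muscle. Brain and muscle, with the high Ptbp2 shares, had the 2 lowest family totals. In muscle the Ptbp2 level per kilobase was 2.72, close to the 2.97 of spleen, while Ptbp1 and Ptbp3 were lower in muscle than in spleen.

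**Figure D2:**
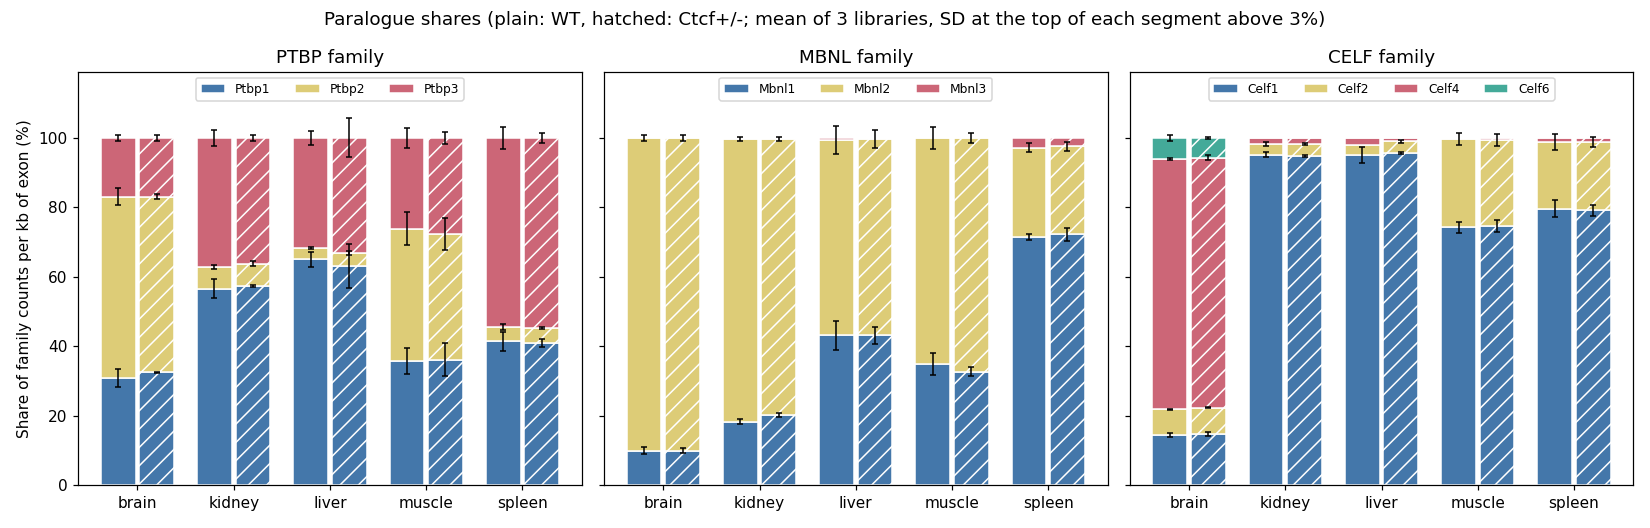
Share of each paralogue in its family's counts per kilobase of exon, in percent, by tissue (plain bars WT, hatched bars Ctcf+/-; mean of 3 libraries, with the SD at the top of each segment above 3%). Ptbp2 takes 52.3% in WT brain against 3.35% in liver, Mbnl1 takes 71.5% in spleen against 10.02% in brain, and Celf4 takes 72.0% in brain and under 2% elsewhere.

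The Mbnl family shifted between Mbnl2 in brain and kidney and Mbnl1 in spleen. The Mbnl1 share was 10.96, 10.1 and 8.999% in the WT brain libraries, 18.0, 19.1 and 18.0% in kidney, 34.5, 31.8 and 38.3% in muscle, 44.1, 46.9 and 38.6% in liver and 72.0, 72.1 and 70.4% in spleen. The 5 tissues did not overlap. Mbnl3 stayed under 1% in every tissue but spleen, where it took 2.82% ± 0.719 (SD, n = 3). The family total was 76.5 ± 4.76 CPM per kilobase in WT muscle and 8.73 ± 1.07 in liver, with the other 3 tissues between.

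By this measure Celf4 led the Celf family in brain and Celf1 everywhere else. Celf4 took 72.0, 71.8 and 72.2% in the WT brain libraries. Celf1 took 95.2% ± 0.714 (SD, n = 3) in WT kidney, 95.1% ± 2.27 in liver, 79.6% ± 2.45 in spleen and 74.3% ± 1.59 in muscle, against 14.5% ± 0.605 in brain. Celf1 itself was not scarce in brain: its level there was 125 CPM, between those of liver and spleen, and the Celf family total was 102 ± 7.99 CPM per kilobase in brain against 25.0 ± 3.24 in spleen, the next highest. Celf2 held 25.4% ± 1.70 in muscle and 19.3% ± 2.34 in spleen, and under 4% in each WT kidney and liver library. Celf3 and Celf5, the remaining genes of the family, were read at 83.9 ± 5.66 and 124 ± 5.95 CPM (SD, n = 3) in WT brain. Counting them in (after seeing the data) lowered the Celf4 share of WT brain to 54.005%, with 13.7% for Celf5 and 11.3% for Celf3.

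Which paralogue leads a family depends in places on the length used. The union of all annotated exons is 18717 bases for Mbnl1 and 25884 for Celf2, but their longest coding transcripts are 5655 and 8856 bases. With the length of the longest coding transcript (chosen after seeing the data) Mbnl1 took 63.8% of the family in WT muscle and 71.2% in liver, so that it and not Mbnl2 led there. In spleen Ptbp1 took 47.2% against 45.2% for Ptbp3, which turns their order. Celf2 took 48.1% in muscle, against 51.8% for Celf1, and 39.4% in spleen, against 59.8%. By raw counts, with no length, Celf2 led in WT muscle with 51.1% against 48.8% for Celf1. The leading member stayed the same in brain for all 3 families, at 66.3% for Ptbp2, 73.0% for Mbnl2 and 61.7% for Celf4. In kidney, Mbnl2 led with 56.9%.

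The 3 genes whose tissue means differed most, on the scale of log2(CPM + 0.5), were Celf4 (a range of 8.84), Celf6 (5.50) and Celf2 (4.48). Over the 30 libraries and the 16019 genes with a mean of at least 1 CPM, the genes most like Celf4 by Pearson's r were Slc4a10 (0.997), 6330403K07Rik (0.996) and Dpp10 (0.996). For Celf6 they were Cbln4, Pnma3 and Adcyap1, each over 0.99. These values are a description, since the libraries share 5 tissues and any brain-specific gene scores high: 897 genes passed 0.95 with Celf4 and 974 with Celf6, but 20 with Celf2. Among the 10 genes themselves, r was 0.951 for Ptbp1 with Ptbp3, 0.989 for Celf4 with Celf6, 0.854 for Ptbp2 with Celf2 and -0.925 for Ptbp1 with Mbnl2.

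The comparison of genotypes asks whether a lower Ctcf dose goes with other levels of these genes in each tissue. No difference between Ctcf+/- and WT was called for any of them. Each tissue was fitted alone with edgeR, and 45 of the 50 combinations of gene and tissue passed the filter on low counts; Celf6 outside brain and Mbnl3 in muscle did not. None of the 45 reached an adjusted p under 0.05, against 0.242% of all genes in spleen, 0.0157% in brain, 0.0249% in muscle, 0.0193% in liver and 0.0211% in kidney. At an unadjusted p under 0.05, edgeR gave 1 of 45, limma-voom 1 and DESeq2 0. With edgeR that 1 was in liver, where 4.56% of all genes had such a p. Among the tissues this share of all genes was lowest in brain (2.96%) and highest in muscle (6.45%). The shares for limma-voom and DESeq2 are not reported here. Neither of these other tools called any of the 45 after adjustment. With the scaling of each tissue alone, as in the fits, the groups did not overlap in 1 of 45, Mbnl3 in liver, against 8.99% of all genes in liver, 7.83% in brain, 12.2% in muscle, 11.4% in kidney and 6.64% in spleen. With the scaling of all 30 libraries, on which levels are printed, they did not overlap in 4 of 45: Ptbp1, Mbnl1 and Mbnl3 in liver, against 8.93% of all genes there, and Mbnl2 in muscle, against 11.9%. On that scale none of the 10 genes was free of overlap in brain (11.7%), kidney (11.1%) or spleen (6.51%). Since Ctcf itself passed only in brain, a change of that size could be missed in the other tissues.

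**Figure D3:**
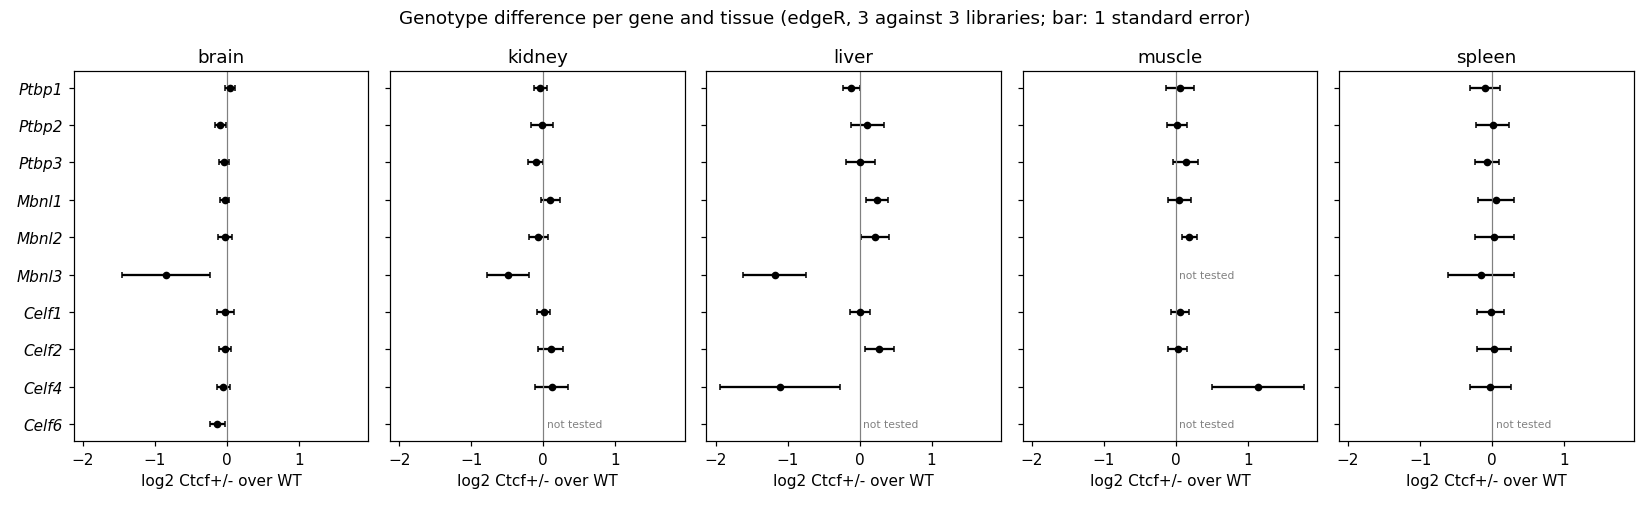
Log2 difference of Ctcf+/- over WT for each gene (rows) in each tissue (panels), with 1 standard error, from edgeR on 3 against 3 libraries. Points other than those of Mbnl3 outside spleen and Celf4 outside brain lie between -0.15 and 0.28, and the wide bars belong to Mbnl3, and to Celf4 in liver and muscle.

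The sizes were small where counts were high. Leaving aside Mbnl3 outside spleen and Celf4 outside brain, which were read from few fragments, the 38 differences lay between -0.15 and 0.28 on the log2 scale, with SEs of 0.06 to 0.46, the largest being that of Mbnl3 in spleen. The median absolute log2 difference of the genes tested in brain was 0.04 against 0.07 over all genes. It was 0.03 against 0.13 in spleen, 0.05 against 0.13 in muscle, 0.10 against 0.11 in kidney and 0.21 against 0.13 in liver. All genes here means every gene past the filter on low counts, not matched to these genes for level. In brain, Ptbp2 read 56.2, 58.8 and 59.7 CPM in Ctcf+/- libraries, among the WT values, with a log2 difference of -0.09 (SE 0.07, edgeR adjusted p = 0.99999). Brain Celf4 read 271, 300.3 and 322 CPM in Ctcf+/-, with -0.05 (SE 0.09, edgeR adjusted p = 0.99999). On the printed scale of all 30 libraries its mean was 298 CPM in Ctcf+/- and 294 in WT. With brain scaled alone, as in the fit, the means were 402 and 416, so the sign depends on the scaling. Muscle Mbnl2 read 291, 238 and 255 CPM in Ctcf+/-, against 216, 233 and 229.8 in WT, with 0.19 (SE 0.10, edgeR adjusted p = 0.856). All 3 were above WT on the printed scale, and the groups overlapped once muscle was scaled alone. Liver Ptbp1 read 113, 106 and 112 CPM in Ctcf+/-, all under the WT values on this scale, with -0.11 (SE 0.11, edgeR adjusted p = 0.9999). Liver Mbnl1 read 102, 73.9 and 74.8 CPM in Ctcf+/- against 68.6, 69.6 and 71.8 in WT, with replicate 1 far above the rest, and gave 0.24 (SE 0.15, edgeR adjusted p = 0.9999). Both liver genes overlapped once liver was scaled alone.

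Mbnl3 in liver was the 1 combination with an unadjusted edgeR p under 0.05 (0.0260) and the 1 whose groups did not overlap under either scaling. Its libraries held 22, 11 and 29 counts in WT and 14, 12 and 6 in Ctcf+/-, or 0.519, 0.308 and 0.691 against 0.258, 0.254 and 0.165 CPM. All 3 WT libraries were above all 3 Ctcf+/- ones, and the log2 difference was -1.18 (SE 0.44, edgeR adjusted p = 0.999). Over 13 other settings the unadjusted p ranged from 0.0121 to 0.0896 and was under 0.05 in 6, and the lowest adjusted p was 0.542. Without liver WT 3, the library with the most Mbnl3 and with synaptic RNA, the log2 difference was -0.83 (edgeR adjusted p = 0.542). In the other tissues tested Mbnl3 gave -0.84 (SE 0.61) in brain, -0.49 (SE 0.29) in kidney and -0.15 (SE 0.46) in spleen.

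Celf4 outside brain had wide errors. In liver it read 0.449, 0.224 and 2.86 CPM in WT and 0.590, 0.592 and 0.551 in Ctcf+/-, with a log2 difference of -1.11 (SE 0.84, edgeR adjusted p = 0.9999). WT 3 stood above all other liver libraries and WT 1 and 2 below all Ctcf+/- ones; without WT 3 the difference turned to 0.79 (edgeR adjusted p = 0.533). In muscle it read 0.280, 0.0308 and 0.139 CPM in WT and 0.240, 0.393 and 0.379 in Ctcf+/-, from 18, 2 and 8 and 15, 21 and 22 counts, with 1.14 (SE 0.64, edgeR adjusted p = 0.855). The muscle groups overlapped.

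A shift common to the tissues was not called either. With 3 mice per genotype and 30 libraries, libraries of different tissues share mice, and the labels do not say which. The fit for such a shift and that of the tissue pairs treat all libraries as independent. For the shift, the SEs and p-values may therefore be too small. For the tissue pairs, which set tissues of the same mice against each other, they may be off in either direction. In a fit of all 30 libraries with tissue as a term, 0 of the 10 genes passed, against 0.194% of all genes, and 0 had an unadjusted edgeR p under 0.05. The estimates ran from -0.43 (SE 0.24, edgeR adjusted p = 0.995) for Mbnl3 to 0.10 (SE 0.08) for Mbnl1. The test of whether the effect of genotype differed between tissues passed for 0 of the 10, against 0.758% of all genes, and the lowest unadjusted edgeR p was 0.191, for Celf4.

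Paralogue shares were also close between genotypes. Of 50 shares, 4 did not overlap between the 3 WT and the 3 Ctcf+/- libraries of a tissue, and none can pass a threshold at an exact permutation p of 0.1. With no difference, groups of 3 and 3 libraries are free of overlap at that same rate of 0.1. The Mbnl1 share in kidney was 18.0, 19.1 and 18.0% in WT and 19.6, 20.4 and 20.5% in Ctcf+/-, a mean difference of 1.83 percentage points. The Mbnl2 share there was 81.5, 80.6 and 81.6% and 80.1, 79.3 and 79.2%, the reverse side of the same shift. The Mbnl1 and Mbnl2 levels in kidney overlapped between the groups, with log2 differences of 0.10 (SE 0.13, edgeR adjusted p = 0.999) and -0.07 (SE 0.13, edgeR adjusted p = 0.999). The other 2 shares were those of Mbnl3 in kidney and liver, each under 1% of the family. The Ptbp2 share in brain was 50.1, 50.1 and 51.3% in Ctcf+/-, inside the WT range, and the Celf4 share in brain was 72.8, 71.6 and 71.7%, which overlapped with WT.

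The 2 spleen libraries that stand apart were low for most of these genes. In 8 of the 9 genes tested there, all but Celf4, WT 1 and Ctcf+/- 2 were the 2 lowest of the 6 libraries, as they were for 28.4% of the 18615 genes tested in spleen. Mbnl3 averaged 3.39 CPM in these libraries and 8.03 in the other 4, a log2 difference of -1.13. Mbnl2 averaged 22.8 and 36.5 CPM, and Ptbp3 moved least among the 8, from 300.02 down to 249.6. The median log2 difference over the 9 was -0.51, against -0.01 over all genes. Exon length moves with this: both libraries were the lowest for 22.1% of the 4656 genes with the shortest exon length, 16.1% and 27.2% of the next 2 groups of that size, and 48.4% of the 4652 with the longest (median 7.53 kilobases), and its part in the result was not tested. Shares within the families moved in part: the Ptbp3 share was 57.7, 53.97 and 51.6% in WT and 53.8, 56.4 and 53.7% in Ctcf+/-, with the 2 libraries highest, and the Ptbp1 share was 38.4, 42.5 and 43.5% and 41.6, 39.6 and 41.9%, with them lowest. They were lowest too in the Mbnl3 share, at 2.11% and 1.73%. The Mbnl1 share was 72.0, 72.1 and 70.4% and 71.0, 74.3 and 71.4%, where they did not lie at 1 end. Without both libraries (an alternative chosen after seeing the data), 0 of the 9 genes were called for genotype and 0 of all 19045 genes tested, and the log2 differences ran from -0.11 for Ptbp1 to 0.15 for Celf4.

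**Figure D4:**
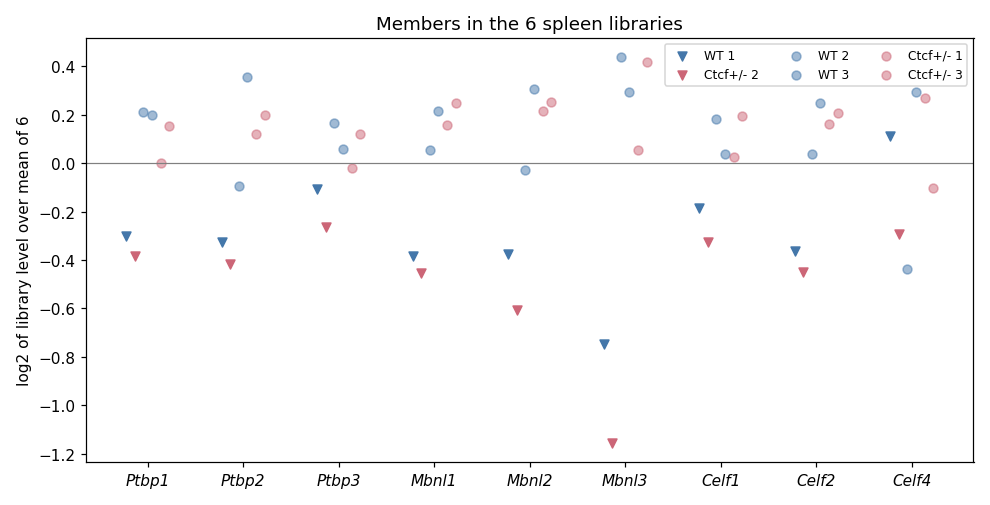
Each spleen library's level of 9 genes, as log2 over the mean of the 6 spleen libraries (triangles WT 1 and Ctcf+/- 2, circles the other 4; blue WT, red Ctcf+/-). The triangles are the lowest points for every gene shown except Celf4.

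Genes tied to these families were read from 6 lists holding 47 genes. Between tissues, 10 of 12 transcripts known to be spliced by MBNL or CELF were higher in WT muscle than in each of the other 4 tissues, against 8.37% of all genes tested, among them Atp2a1, the calcium pump of fast fibres, at 34540.0 ± 6142 CPM (SD, n = 3); most of that list are muscle genes. Of 12 transcripts known to be spliced by PTBP, 4 were higher in WT brain than in each other tissue, against 16.7% of all genes, among them the NMDA receptor subunit Grin1 at 220.3 ± 14.8 CPM, and 3 in muscle, among them Tpm1 (tropomyosin). Of 12 other neural splicing regulators, 10 were higher in WT brain than in each other tissue, including Rbfox3 at 193 ± 12.7 CPM and Nova2 at 35.5 ± 0.842 CPM. The same 10, 4, 3 and 10 genes passed in the Ctcf+/- libraries, where 7.43% of all genes were higher in muscle and 16.7% in brain. Of the 5 PTB partners and relatives, the corepressor Raver1 (82.1 ± 2.39 CPM in WT spleen) and Hnrnpl were higher in WT spleen than in each other tissue (14.8% of all genes, and 15.1% in Ctcf+/-), and Raver2 (14.3 ± 1.01 CPM in WT brain) was higher in brain; in Ctcf+/- libraries Raver1 and Raver2 passed and Hnrnpl did not. Of the 4 genes of the myotonic dystrophy loci, Dmpk, whose repeat expansion causes the type 1 disease, stood at 540.1 ± 68.7 CPM in WT muscle, and Dmpk and Cnbp were higher there than in each other tissue.

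None of the list genes was called for genotype: 0 of 47 tested in brain, 0 of 34 in spleen, 0 of 40 in muscle, 0 of 33 in liver and 0 of 42 in kidney. At an unadjusted edgeR p under 0.05 there were 2 in brain (2.96% of all genes), 2 in spleen (3.52%), 2 in muscle (6.45%), 1 in liver (4.56%) and 3 in kidney (6.44%). Among them, chosen after their values were seen, Dmpk in kidney gave 0.52 (SE 0.13, edgeR adjusted p = 0.431, unadjusted p = 0.00413) and Tnnt1 in muscle, which encodes slow troponin T, gave -1.33 (SE 0.47, edgeR adjusted p = 0.647, unadjusted p = 0.0228). Kidney WT 3 and Ctcf+/- 3 held traces of the muscle gene Myh4 (43.8 and 55.4 CPM), whose part in the kidney value of Dmpk was not tested.

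RefSeq promoter windows of GRCm38.p6, from 250 bases before to 50 bases after a gene's start, were matched by symbol for 8 of the 10 genes, with 14 windows. These windows held 2 to 48 CpG dinucleotides each, against a median of 7 over all 32851 windows, with 48 in 1 of the 5 Celf2 windows and 4 to 8 in its other 4.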

How the data were processed

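Raw fragment counts per gene were deposited in 1 table per tissue; per the file headers the authors made them with featureCounts 1.5.0-p3 from IRFinder alignments, on exons of Ensembl release 86 (GRCm38), without regard to strand and leaving out fragments that align to several places or overlap several genes. Paralogues with near-identical stretches can therefore lose counts. Exon length, an other column in the deposited tables, is the union of a gene's exons in bases. The submitters' processing notes also name FastQC, STAR and DESeq2. Genes were identified by symbol for 48349 of 48709 identifiers.

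Counts were fitted with edgeR 4.0.16 in R 4.3.3: low counts removed by filterByExpr, TMM scaling, the quasi-likelihood F-test, and p-values adjusted by Benjamini-Hochberg over every gene tested, with a call at an adjusted p under 0.05. Genotype was tested within each tissue, over all tissues and as an interaction; tissue pairs were tested within a genotype and also needed an absolute log2 difference of at least 1. Printed CPM come from 1 TMM scaling of all 30 libraries. Shares and exon sequences were computed from the counts, exon lengths and GENCODE M21. limma 3.58.1 (voom) and DESeq2 1.42.0 were alternatives. The fits were tested on simulated data. No replicate pair agreed within sampling noise (chi-square per degree of freedom 15.4 to 640). The design names 3 mice per genotype; the labels do not say which libraries share a mouse. Same-numbered WT and Ctcf+/- libraries deviated together in brain (r = 0.28 to 0.65) and kidney (0.25 to 0.29), where every pair passed 0.1. In liver (0.07, 0.10 and 0.26) and muscle (0.08, 0.27 and 0.39) r was positive in every pair but under 0.1 in 1, and in spleen it was negative in 2 of 3. The 10 genes, the lists and the tests were chosen with earlier results of these data known. The text names the 10 genes in every comparison, Ctcf, list genes called for genotype and the 3 nearest genes of the 3 widest-ranging genes (those of Celf2 are not reported here); other list genes were named after their values were seen.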

Additional observations from a re-analysis of the deposited data

How the results depend on the processing

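In each tissue 0 of the 10 genes were called for genotype under any of the alternatives run (DESeq2 size factors, total counts, DESeq2, limma-voom, no filter, at least 10 counts in every library, all 30 libraries in 1 fit, the replicate block and each library left out). The replicate block was run in every tissue because the labels do not say what the replicate number marks. In brain and kidney, where same-numbered libraries deviated together, it raised the calls over all genes from 3 to 22 and from 4 to 21. The calls among the 10 genes stayed at 0. The block left the tissue-pair calls at 61 (WT) and 56 (Ctcf+/-). Over all genes, DESeq2 called 187 in spleen, 28 in brain, 159 in muscle, 72 in liver and 175 in kidney, against 45, 3, 4, 3 and 4 with edgeR; limma-voom called 97 in spleen and 2 in muscle; the block called 7 in liver, 118 in muscle and 0 in spleen. Tissue-pair calls ranged from 41 to 78 in WT and 47 to 78 in Ctcf+/-. The lowest counts came from the strict filter, which tests fewer genes. The highest came from dropping the fold minimum, which changes the rule for a call rather than the processing. Shares of all genes under these settings are not reported here. Leaving out 1 library gave 58 to 62 and 55 to 57 calls. Of 117 called gene and tissue-pair differences, 15 lost their call in at least 1 of the refits. Without liver WT 3, Celf4 in WT liver over muscle (1.02) and Celf6 in WT liver over spleen lost theirs. Celf4 in WT kidney over muscle, at an edgeR adjusted p of 0.0416, lost its call without any 1 of 8 libraries, with 1.47 without muscle WT 2. Mbnl2 in WT brain over muscle reversed to 0.2045 with total counts. Shares without overlap between tissues numbered 85 of 100 in WT (80 to 89 otherwise), and between genotypes 4 of 50 (4 to 7 with 1 library left out, with 7 without liver Ctcf+/- 3 and without spleen WT 3). Within same-numbered pairs (a replicate block for the shares, added after seeing the data), 11 of 50 shares moved one way in all 3 pairs, where the smallest exact 2-sided sign-flip permutation p is 0.25. With no difference, all 3 pairs move one way at that same rate of 0.25. Counts limit Mbnl3 outside spleen and Celf4 and Celf6 outside brain.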
